A study of Homo sapiens with 12 samples.

Results

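The protein kinases AKT1 and AKT2, the kinase PDPK1 that activates them, and 5 phosphatases that act on Akt or on the lipids that recruit it were examined in synovial sarcoma (SS) cells treated with the PI3K inhibitor ZSTK474. Members were all probe sets annotated with exactly 1 gene symbol among AKT1, AKT2, PDPK1, PHLPP1, PHLPP2, INPP4B, INPPL1 and INPP5E, 8 of the 19775 genes with such a probe set. These were 24 of the 54613 probe sets that are not array controls, and 17 of them, with at least 1 for each of the 8 genes, were bright enough to be tested among 27306 probe sets in all. AKT2 had 7 probe sets, PDPK1 6, INPP4B 4, PHLPP1 and PHLPP2 2 each, and AKT1, INPPL1 and INPP5E 1 each. The 4 established human SS cell lines were cultured for 24 h without drug (0 µM) or with ZSTK474 at 0.3 µM or 3 µM. ZSTK474 blocks all class I PI3K isoforms. Aska-SS and Yamato-SS carry the fusion gene SS18-SSX1 and SYO-1 and Fuji carry SS18-SSX2, per the study's own description of the lines. Each line was hybridized once per dose to an Affymetrix U133 Plus 2.0 array, giving 12 arrays, so the 4 lines were the replicates. P-values therefore rest on the spread between lines in their response. Noise of cultures and arrays is part of that spread, and the spread between repeated cultures of a line was not measured. The fit also drew the variance of each probe set toward a trend over all tested probe sets.

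PI3K makes a membrane phospholipid, the inositol trisphosphate lipid known as PIP3, which draws Akt and PDPK1 to the plasma membrane through their pleckstrin homology domains. PDPK1 (the kinase PDK1) phosphorylates the activation loop of Akt, and mTORC2 phosphorylates its hydrophobic motif, the residue that PHLPP1 and PHLPP2 dephosphorylate. INPPL1 (also called SHIP2) and INPP5E remove the phosphate at a single position of the inositol ring of PIP3, and INPP4B removes one from the bisphosphate lipid that results, which also binds Akt. The arrays report transcript levels and not phosphorylation or enzyme activity.

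Median deposited signals lay between 60.1 and 70.6 on the 0 µM arrays, between 63.6 and 77.7 for 0.3 µM and between 71.0 and 85.3 for 3 µM, and all values below are signals after quantile normalization, in which levels are compared within a probe set only. Of the synovial sarcoma markers with a probe set, TLE1, SSX1, BCL2, CD99, FGFR3, PRAME and TWIST1 passed the brightness filter, TWIST1 with a lowest signal of 31.9. Of the markers of other cell types, KRT7 and KRT18 (epithelial) and PECAM1 (endothelial) passed too, and 0 leukocyte or skeletal muscle markers did. Of those leukocyte markers, CD14 was at the floor on 12 of 12 arrays, PTPRC on 5 and LYZ on 2, while CD3E was at it on 0, with signals of 23.6 to 227. Of the muscle markers, MYOG was at the floor on 12 of 12 arrays and MYOD1 and DES on 0, with DES at 30.7 to 111. The log2 ratio of the 3' to the 5' probe set of beta actin is a sign of RNA quality. It was 0.24 to 0.75 at 3 µM (highest in Fuji) and 0.04 to 0.16 at 0 µM. Within lines, the ratio at 3 µM minus that at 0 µM was 0.12 to 0.59 for beta actin and -0.13 to 0.15 for GAPDH. The part of this shift in the changes below was not tested.

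At 3 µM, probe sets of AKT1, of AKT2 and of PHLPP2 were lower than at 0 µM, and probe sets of PDPK1, INPPL1 and INPP4B were higher. The size of these changes was modest, with fold changes of 0.67 to 1.37. Other tested probe sets of AKT2, PDPK1 and INPP4B did not reach an adjusted p of 0.05. Those of AKT2 and of INPP4B also differed in direction. In all, 7 of the 17 tested member probe sets (41.2%) passed an adjusted p of 0.05 in limma, against 39.4% of all tested probe sets, so the share among members was close to that of the array. By direction, 4 were higher (23.5%, against 19.6% of all) and 3 lower (17.6%, against 19.8%). Probe sets higher in 4 of 4 lines were 4 of 17 members (23.6% of all probe sets), and those lower in 4 of 4 were 3 (23.9% of all). The signals at 3 µM and 0 µM did not overlap for 2 member probe sets, 1 of AKT2 and 1 of PDPK1 (11.8%, against 10.9% of all). The median log2 change was 0.13 over the members and 0.00 over all tested probe sets. Without cell line as a block, 0 of 17 passed (limma), against 2.13% of all. In that fit 3 of the 17 had an unadjusted p under 0.05, beside 4736 of all 27306 probe sets.

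**Figure D1:**
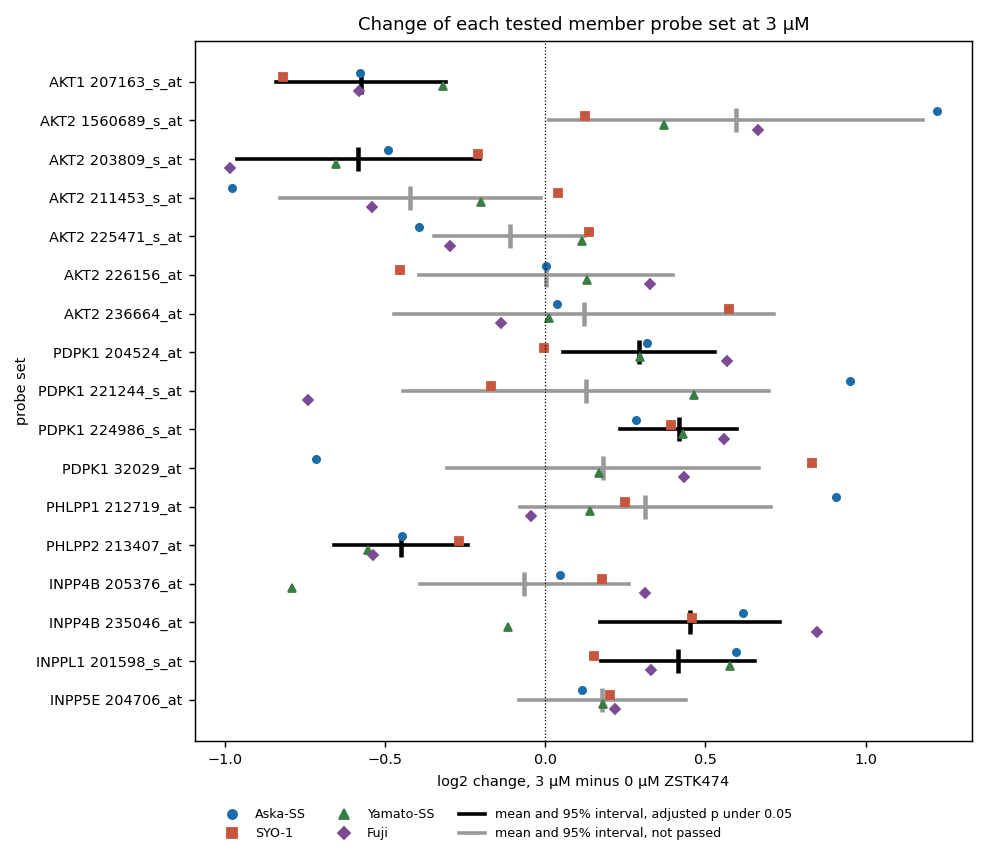
Log2 change in signal, 3 µM minus 0 µM ZSTK474, for the 17 tested member probe sets, with 1 symbol per cell line, the mean as a vertical tick and its 95% interval as a bar. Black bars mark the 7 probe sets with an adjusted p under 0.05 and grey bars the others. AKT1 207163_s_at, AKT2 203809_s_at and PHLPP2 213407_at lie left of 0 in 4 of 4 lines.

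The upstream sequences of AKT1, PDPK1 and PHLPP2 are shown because these genes hold the 3 probe sets that passed at 3 µM with each line left out in turn. Each is the 250 bases before the outermost start site that RefSeq lists on GRCh38.p14, with capitals for GC boxes, written as GGGCGG or as its reverse complement CCGCCC, which may overlap one another.
AKT1 (chr14:104795749-104795998, minus strand): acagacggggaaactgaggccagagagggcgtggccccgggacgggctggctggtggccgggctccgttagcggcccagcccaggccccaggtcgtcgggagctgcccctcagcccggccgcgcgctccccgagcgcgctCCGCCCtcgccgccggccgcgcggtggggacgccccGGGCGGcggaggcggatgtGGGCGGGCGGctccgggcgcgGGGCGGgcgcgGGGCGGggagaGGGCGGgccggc
PDPK1 (chr16:2537771-2538020, plus strand): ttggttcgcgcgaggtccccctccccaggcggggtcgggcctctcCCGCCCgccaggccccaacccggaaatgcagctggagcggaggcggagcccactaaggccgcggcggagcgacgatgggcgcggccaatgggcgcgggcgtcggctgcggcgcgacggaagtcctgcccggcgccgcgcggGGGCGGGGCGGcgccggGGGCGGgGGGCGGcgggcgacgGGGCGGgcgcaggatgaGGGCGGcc
PHLPP2 (chr16:71724702-71724951, minus strand): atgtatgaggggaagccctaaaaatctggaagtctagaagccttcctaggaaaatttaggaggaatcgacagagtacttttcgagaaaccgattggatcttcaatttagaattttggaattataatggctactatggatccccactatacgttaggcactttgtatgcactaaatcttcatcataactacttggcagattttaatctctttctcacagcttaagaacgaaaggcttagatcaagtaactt
The AKT1 window held 7 GC boxes and a GC content of 83.2%, and the PDPK1 window 7 and 81.6%. The PHLPP2 window held 0 GC boxes and had a GC content of 37.2%, against a median of 58.0% over the 35116 windows of all genes. A GC box stood in 10 of the 17 windows of the members (58.8%), counting every listed start, and in 42.6% of all windows. The recognition letters of FOXO factors, TGTTTAC or GTAAACA, were in 0 of the 17 and in 2.98% of all. A CCAAT box (CCAAT or ATTGG) stood in 29.4% of the member windows and 32.0% of all, and an E-box (CACGTG) in 5.88% and 6.34%. These matches describe letters in the windows shown and say nothing of binding.

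AKT1, the ubiquitous isoform of the kinase, was lower at 3 µM in each of the 4 lines. In Yamato-SS, Fuji, Aska-SS and SYO-1, in that order, the signal of 207163_s_at was 946, 1346, 1486 and 1124 at 0 µM, 1049.9, 1006, 1137 and 1046 at 0.3 µM and 759, 899.6, 995 and 638 at 3 µM. Aska-SS was highest at 0 µM and at 3 µM and SYO-1 lowest at 3 µM, and the ranges at 3 µM and 0 µM overlapped, since the highest line at 3 µM stood at 995 and the lowest at 0 µM at 946. The log2 change at 3 µM was -0.57 (SE 0.12, 95% interval -0.84 to -0.31, adjusted p = 0.00271, limma), and the changes within lines ran over -0.82 to -0.32. At 0.3 µM the change against 0 µM was -0.19 (95% interval -0.46 to 0.07), with 3 of 4 lines lower. Against 0.3 µM, AKT1 at 3 µM did not overlap in range and had a log2 change of -0.38 (adjusted p = 0.0614), in 4 of 4 lines.

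AKT2, the isoform linked to insulin-stimulated glucose uptake, was read by 6 tested probe sets that moved in different directions. One of them, 203809_s_at, passed. In the same order of lines its signal was 235, 201, 219 and 256 at 0 µM, 259.7, 183, 176 and 279 at 0.3 µM and 149.5, 102, 156 and 221 at 3 µM. It was lowest at 3 µM in each line, and Fuji was the lowest line there, while SYO-1 at 3 µM lay within the range of the lines at 0 µM. The log2 change at 3 µM was -0.58 (SE 0.17, adjusted p = 0.0184, limma), but this call was lost without Yamato-SS (adjusted p = 0.0626), without Fuji (0.0996), without quantile normalization (0.0967), with the arrays of the 2 doses alone (0.0547) and with array weights (0.0585).

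The brightest AKT2 probe set, 225471_s_at, did not pass. Its signal was 1256, 1172, 1518 and 1120.0 at 0 µM, 1245, 1096, 1332 and 1191 at 0.3 µM and 1359.7, 954, 1155 and 1230.3 at 3 µM. Aska-SS and Fuji were lower at 3 µM than at 0 µM and SYO-1 and Yamato-SS were higher, and the groups overlapped. The log2 change was -0.11 (95% interval -0.35 to 0.13, adjusted p = 0.451). At 3 µM, 1560689_s_at had a change of 0.60 (95% interval 0.01 to 1.18, adjusted p = 0.0981), higher in 4 of 4 lines with no overlap, at low signals of 83.3 to 95.5 with 3 µM, against 40.7 to 76.5 without drug. The remaining tested AKT2 probe sets were 211453_s_at (-0.42, adjusted p = 0.0951), 226156_at (0.00) and 236664_at (0.12), none of which passed. By its mean over the doses, 226156_at was highest in Yamato-SS and lowest in Fuji, 2.99-fold apart. The dim probe set 203808_at was not tested.

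PDPK1 was higher at 3 µM by its 2 brightest probe sets. In the same order of lines, the signal of 224986_s_at was 1949, 2120.2, 2492 and 2375 at 0 µM, 1969, 2774, 2722 and 2582 at 0.3 µM and 2625, 3121, 3033 and 3120.0 at 3 µM. Each of the 3 µM signals exceeded each of the 0 µM signals, and Yamato-SS was the lowest line at each dose. The log2 change was 0.42 (SE 0.084, 95% interval 0.23 to 0.60, adjusted p = 0.00203, limma), in 4 of 4 lines, a fold change of 1.33. The other, 204524_at, had signals of 887, 1058, 1140.5 and 1058 at 0 µM, 947, 1203, 1353 and 1205 at 0.3 µM and 1088, 1566, 1420.1 and 1054 at 3 µM. Yamato-SS, Fuji and Aska-SS were higher at 3 µM and SYO-1 was at -0.01 on the log2 scale. Its change of 0.29 (SE 0.11, adjusted p = 0.0491) lay at the threshold and was lost without Aska-SS, without Yamato-SS and without Fuji (adjusted p = 0.151, 0.118 and 0.205). It was also lost with no brightness filter (0.0792), with the 2 doses alone (0.133), without the variance trend (0.0701) and with array weights (0.109).

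Of the other PDPK1 probe sets, 32029_at (log2 change 0.18, adjusted p = 0.558) and 221244_s_at (0.13, adjusted p = 0.733) did not pass, and 244629_s_at and 244630_at were too dim to be tested. A near-identical copy, PDPK2P, lies on the same chromosome, 16, so these signals may not separate PDPK1 from it. With the 6 probe sets averaged, the change was 0.13 (adjusted p = 0.475).

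**Figure D2:**
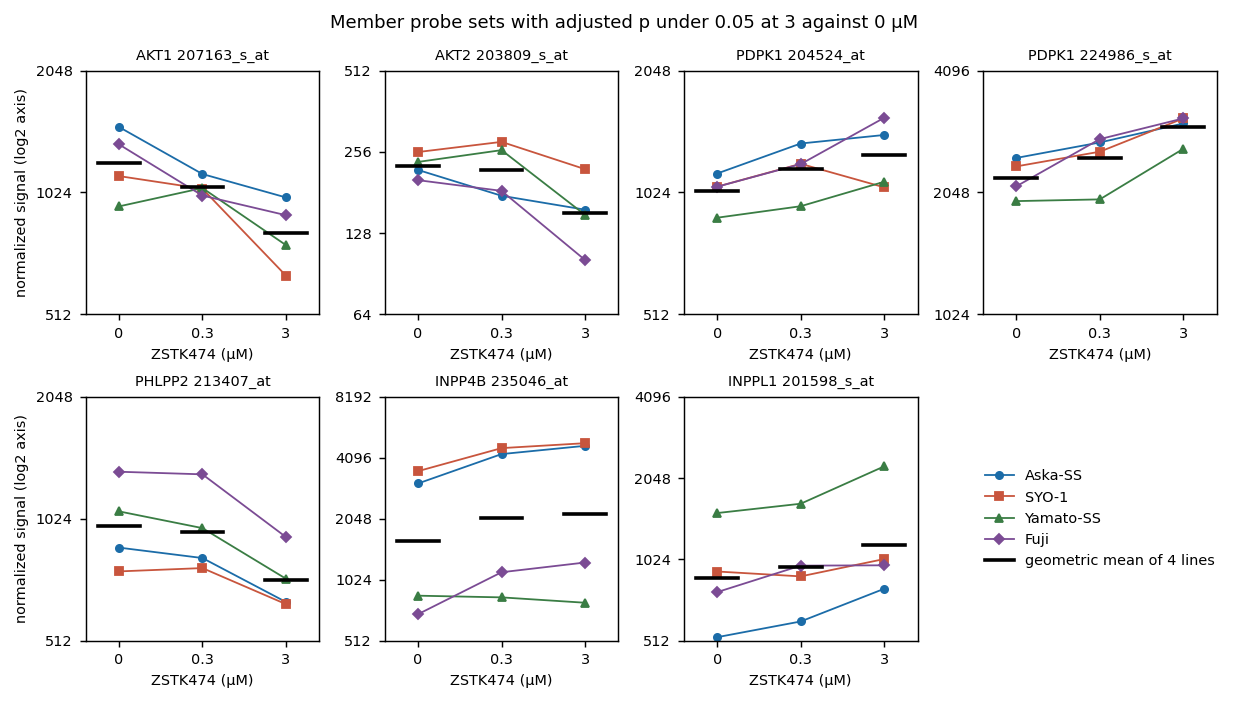
Normalized signal (log2 axis, which spans a different range in each panel) against ZSTK474 dose in µM for the 7 member probe sets that passed at 3 against 0 µM, with 1 line per cell line and a black bar for the geometric mean of the 4 lines. The AKT1, AKT2 and PHLPP2 panels fall at 3 µM in each line, and the levels of INPP4B are several times higher in SYO-1 and Aska-SS than in Yamato-SS and Fuji.

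The 2 PHLPP phosphatases were read by 1 tested probe set each. For PHLPP2, which removes the phosphate at the hydrophobic motif of Akt as PHLPP1 does, the signal of 213407_at was 1068, 1338, 869 and 759 at 0 µM, 971, 1318, 819 and 773 at 0.3 µM and 728, 923, 638 and 629.9 at 3 µM. Fuji was the highest line at each dose and SYO-1 the lowest at 0, 0.3 and 3 µM, and in each line the 3 µM signal was the lowest. The log2 change at 3 µM against 0 µM was -0.45 (SE 0.096, 95% interval -0.66 to -0.24, adjusted p = 0.00278, limma), a fold of 0.73, in 4 of 4 lines. The change at 3 µM against 0.3 µM was -0.40 (SE 0.096, adjusted p = 0.0215), in 4 of 4 lines, and at 0.3 µM against 0 µM it was -0.05 (95% interval -0.26 to 0.15). With the dim second probe set averaged in, the change at 3 µM was -0.47 (adjusted p = 0.197).

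For PHLPP1, the signal of 212719_at was 117, 577, 192 and 574 at 0 µM, 115, 674, 181 and 615 at 0.3 µM and 129, 559, 359.8 and 681 at 3 µM. SYO-1 and Fuji were high, Yamato-SS was low at each dose and Aska-SS lay between, so that the line means differed by 5.18-fold and the ranges of Fuji, Aska-SS and Yamato-SS over the doses did not overlap in that order. The log2 change at 3 µM was 0.31 (95% interval -0.08 to 0.70, adjusted p = 0.191), with 3 of 4 lines higher and the largest change, 0.91, in Aska-SS. PHLPP1 210919_at was at the floor on 10 of 12 arrays and PHLPP2 214944_at on 2, and neither was tested.

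INPP4B, a lipid phosphatase that acts on the bisphosphate lipid, had a large difference in level between lines and a divided response. In the same order of lines, the signal of 235046_at was 853, 691, 3059 and 3520.0 at 0 µM, 837, 1114, 4274 and 4575 at 0.3 µM and 787, 1244, 4696 and 4839 at 3 µM. SYO-1 and Aska-SS were several times higher than Yamato-SS and Fuji at each dose, with a 5.18-fold range of line means, and 3 of 4 lines were higher at 3 µM than at 0 µM, with Yamato-SS at -0.12. The log2 change was 0.45 (SE 0.13, 95% interval 0.17 to 0.73, adjusted p = 0.0148, limma). It was lost without Aska-SS (adjusted p = 0.0969), without SYO-1 (0.0674), without Fuji (0.0841), with no brightness filter (0.0693) and with the 2 doses alone (0.0573), while without Yamato-SS it was 0.64 (adjusted p = 0.00115).

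The signal of the other bright INPP4B probe set, 205376_at, was 461, 577, 2297 and 2460.0 at 0 µM, 367, 671, 2486 and 2621 at 0.3 µM and 266, 715, 2371 and 2779 at 3 µM. Here Yamato-SS was the lowest line at each dose, while on 235046_at Fuji was lowest at 0 µM. On 205376_at Yamato-SS moved the other way from the other 3 lines, and the line means spanned 7.35-fold. The log2 change at 3 µM was -0.06 (95% interval -0.39 to 0.26, adjusted p = 0.763). INPP4B 223878_at and 1563833_at were dim and not tested. The first of these was lower at 3 µM in 4 of 4 lines, by -1.16 to -0.55 on the log2 scale (mean -0.81 ± 0.27, SD, n = 4 lines), with Yamato-SS at the floor at 3 µM. Of all tested probe sets, 23.9% were lower in 4 of 4 lines. The second was higher in 3 lines and lower in 0 (mean 0.51 ± 0.45, SD, n = 4 lines), and was at the floor on 6 of 12 arrays. The probe sets of the gene averaged to a change of 0.02 (adjusted p = 0.935).

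INPPL1 was higher at 3 µM, with signals of 201598_s_at of 1520.2, 774, 527 and 923 at 0 µM, 1646, 970.3, 602 and 885 at 0.3 µM and 2265, 973, 796 and 1027 at 3 µM. Yamato-SS was the highest line at each dose and its range did not overlap those of the other lines, while Aska-SS was the lowest, for a 2.82-fold range of line means. The log2 change was 0.41 (SE 0.11, 95% interval 0.17 to 0.65, adjusted p = 0.0103, limma), in 4 of 4 lines, but the call was lost without Aska-SS (adjusted p = 0.0707) and without Yamato-SS (0.0642).

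INPP5E, a phosphatase of the primary cilium, did not pass. Its signal on 204706_at was 417, 473, 641 and 511 at 0 µM, 398, 631, 852 and 591 at 0.3 µM and 472, 550.4, 694 and 587 at 3 µM. Aska-SS was the highest line at each dose and Yamato-SS the lowest, and the 3 µM signal exceeded the 0 µM signal in 4 of 4 lines, with overlap between the groups. The log2 change was 0.18 (95% interval -0.08 to 0.44, adjusted p = 0.263).

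**Figure D3:**
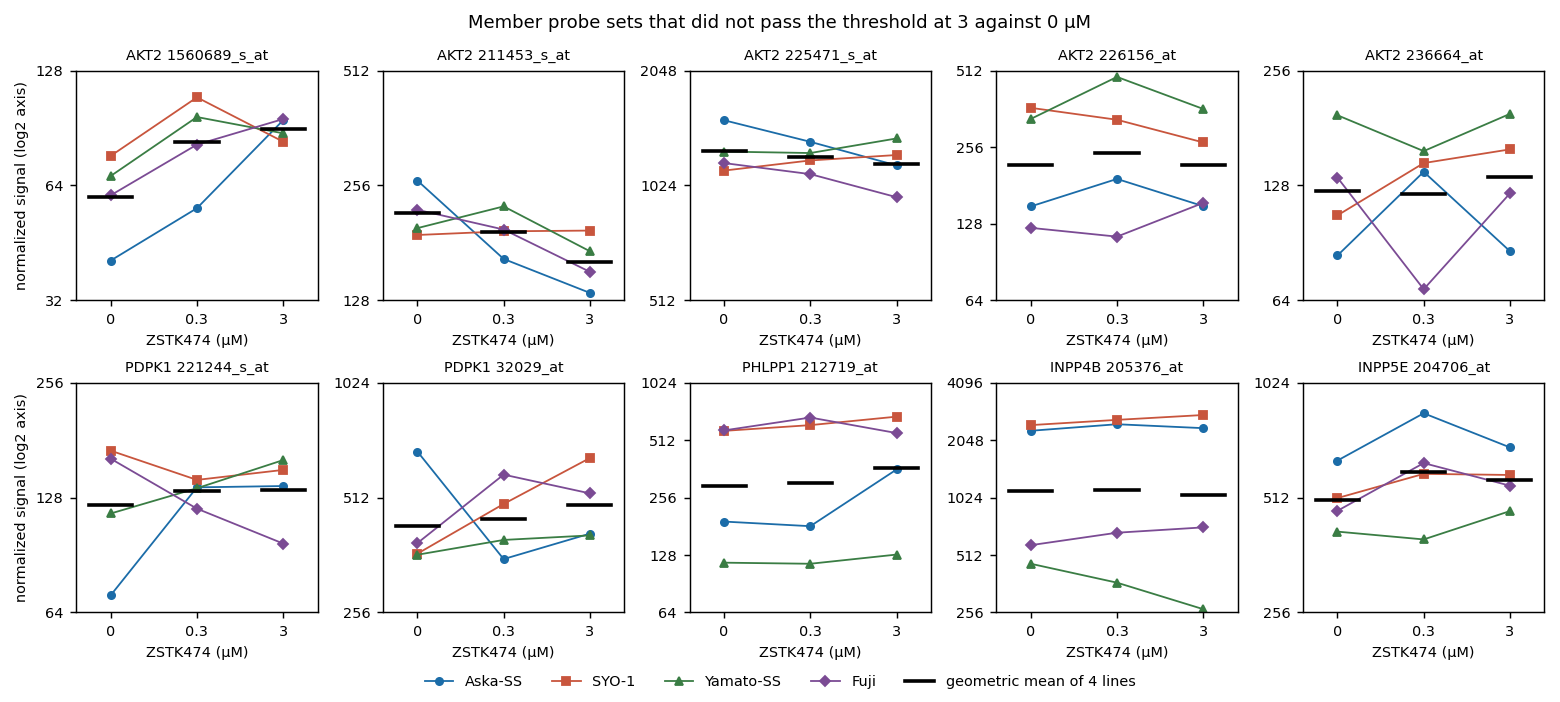
Normalized signal (log2 axis, which spans a different range in each panel) against ZSTK474 dose in µM for the 10 member probe sets that did not pass at 3 against 0 µM, with 1 line per cell line and a black bar for the geometric mean of the 4 lines. AKT2 1560689_s_at is higher at 3 µM than at 0 µM in each line, and PHLPP1 and INPP4B levels differ several times between lines.

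At 0.3 µM, 0 of the 17 member probe sets passed against 0 µM, where 5.32% of all probe sets did. In limma, 1 of the 17 had an unadjusted p under 0.05, beside 6596 of all 27306 probe sets. This member was INPP4B 235046_at, with a change of 0.38 (adjusted p = 0.0982), higher in 3 of 4 lines. At 3 µM against 0.3 µM, 1 of 17 passed (5.88%, against 11.5% of all), PHLPP2 213407_at, and AKT1 was the 1 member whose ranges did not overlap (2.59% of all). The call of PHLPP2 was lost on leaving out any 1 line (adjusted p = 0.0674 to 0.0927). In the same comparison, PDPK1 224986_s_at had a change of 0.25 (adjusted p = 0.0717) and AKT2 203809_s_at one of -0.54 (adjusted p = 0.0652), each in 4 of 4 lines. Of the 17, 2 were higher and 3 lower in 4 of 4 lines there, and the share of all probe sets is not given here. The 3 comparisons share arrays and are not independent.

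Differences between pairs of member probe sets in their change at 3 µM were also taken within lines. The change of PHLPP1 212719_at exceeded that of PHLPP2 213407_at by 0.76 ± 0.40 on the log2 scale (SD, n = 4 lines), in 4 of 4 lines. AKT1 207163_s_at changed by -0.46 ± 0.34 relative to AKT2 225471_s_at and AKT2 203809_s_at by -0.47 ± 0.31 relative to AKT2 225471_s_at, while INPP4B 235046_at changed by 0.52 ± 0.17 relative to INPP4B 205376_at. Each had the same sign in 4 of 4 lines, and a two-sided exact permutation test gave p = 0.125 for each of the 4, the smallest that 4 lines allow, and 0.125 after adjustment. The 4 pairs were chosen after their values were seen.

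Genes that work beside the members were read from their brightest probe set at 3 µM against 0 µM. Over all 12132 genes read in this way 43.4% passed, 22.5% higher and 21% lower, and in the 7 lists the share was 28.6% to 57.1% (40 of 88 genes in all). Among 9 tested PI3K subunits 2 were higher and 2 lower, among them PIK3R3, a regulatory subunit (log2 change -1.57, SE 0.14, adjusted p = 1.4e-05), and PIK3C3, the class III PI3K (0.74). Of 7 subunits and partners of mTORC2, which phosphorylates Akt, 2 were higher and 2 lower, with RICTOR at 0.94 and MAPKAP1 at -1.09. Of 12 subunits of PP2A, a phosphatase of Akt, 1 was higher and 5 lower, including PPP2CA (-0.53), a catalytic subunit, and PPP2R1B (-0.94), a scaffold subunit.

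Of 18 other phosphoinositide phosphatases 4 were higher and 3 lower, with FIG4 at 0.85 and SACM1L at -0.34. Of 14 proteins that bind Akt or PHLPP, 4 were higher and 4 lower, including NHERF1 (-1.17), a PDZ scaffold, and HSP90AA1 (-0.62), a chaperone. Of 14 Akt substrates, 6 were higher and 1 lower, with CDKN1B, a cyclin-dependent kinase inhibitor, at 1.03 and CHUK, a kinase of the NF-κB pathway, at -1.38. Of 14 other kinases that PDPK1 phosphorylates, 2 were higher and 2 lower, with PKN2 at 0.54 and RPS6KA1 at -1.04. The list medians were -0.29 for PP2A, 0.23 for Akt substrates and -0.12 to 0.05 for the other 5 lists, beside 0.01 over the 12132 genes. Without Fuji, 2 of the 18 phosphoinositide phosphatases and 4 of the 14 binding proteins passed, without SYO-1 4 of these phosphatases and without Aska-SS 5 of these binding proteins. The count for the phosphatases was also 3 with no brightness filter or the 2 doses alone and 4 without the variance trend, and that for PI3K subunits was 2 with the gene mean. Without the block, 0 to 1 gene passed in each list. Of all tested probe sets, 39.4% passed in the main fit, 31.0% without Fuji, 33.1% without SYO-1 and 30.4% without Aska-SS. Their share was 16.3% with no filter, 29.8% with the 2 doses alone, 37.1% without the trend and 2.13% without the block. With the gene mean 38.2% of genes passed. In the main fit, the adjusted p-values, from limma over all 27306 probe sets, passed for each gene named, in 4 of 4 lines.

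The genes whose changes from 0 µM were most like those of a member, by root mean square difference over the 8 treated arrays, were drawn from 12124 genes. They were ALG1 and HMOX2 for AKT1 (differences of 0.089 and 0.095), SESN2 and LRRC8D for AKT2 225471_s_at (0.068 and 0.078), and COMMD3 and CAMSAP2 for PDPK1 224986_s_at (0.058 and 0.059). For PHLPP2 they were TMEM33 and STRAP (0.088 and 0.094), for PHLPP1 MEX3C and CCDC57 (0.15 and 0.15), and for INPP4B 235046_at NFIA and ZFP62 (0.11 and 0.12). For INPPL1 they were SIAH1 and TTC31 (0.077 and 0.083) and for INPP5E MCRIP1 and ZNF879 (0.078 and 0.093). The median over all genes was 0.47 to 0.65.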

How the data were processed

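The deposited intensities are linear MAS5 signals, which the authors brought to a common 2% trimmed mean (500.1 on each array), with 1 as the lowest value. Per the submitters' processing notes the tool was MAS5 (version not given in the sources used here). The study's methods name quantile normalization, which was run here on the deposited intensities. Values under the 20th percentile (signal 12.11) were then set to it and turned into log2 values. After removal of the 62 control probe sets, the 27306 with a mean above the median (signal 65.14) entered a limma fit (R 4.3.3, limma 3.58.1) of all 12 arrays, with dose as a factor, cell line as a block and a variance that depends on mean signal. Benjamini-Hochberg adjustment covered all of them. The annotation gave 1 gene symbol to 41091 probe sets, several to 1801 and none to 11721, and 0 probe sets of the members had several. RefSeq names of GRCh38.p14 changed 0 symbols.

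Each line was used at each dose, and its number pairs the arrays: within a line, departures from the means of the doses had r = 0.788 to 0.907, and between lines at unequal doses r = -0.415 to -0.103. The largest r of any 2 arrays was 0.981, so none was counted as a repeat. Precision is limited by the number of arrays. The genes named are those of all member probe sets, the 2 with the lowest adjusted p within a list at 3 against 0 µM and the 2 closest to each member in their changes. Members and lists were chosen with earlier results of these data known. The other settings tried were values as deposited, log2 after adding 16, a higher floor (40th percentile), a laxer or stricter brightness filter (none, 65th percentile), gene-level values (brightest probe set, mean), a fit without the block, fits of 2 doses, a fit without the variance trend, array weights, and each line left out. The sarcoma marker SSX2 lacked a probe set with 1 symbol. Some items are not covered here.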

Additional observations from a re-analysis of the deposited data

Results flagged for a closer look

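Each tested member probe set was examined in the 4 lines at each dose and for its 3 changes, 102 groups of 4 values. In 4 of them 1 line stood apart from the other 3 by Dixon's ratio at its 95% critical value, where chance alone gives about 5.1. At 0.3 µM the log2 level of AKT2 236664_at was 6.10 in Fuji (signal 68.4), against 7.12 to 7.30 in the others. At 3 µM that of PDPK1 224986_s_at was 11.36 in Yamato-SS (signal 2625), against 11.57 to 11.61. At 0 µM that of PDPK1 32029_at was 9.40 in Aska-SS (signal 676), against 8.50 to 8.60. The log2 change of AKT2 226156_at at 3 µM against 0.3 µM was 0.44 in Fuji, against -0.42 to -0.30 in the others.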

How the results depend on the processing

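At 3 against 0 µM, the members passing were 8 of 17 without quantile normalization (41.7% of all probe sets), 7 of 17 with log2 of the value plus 16, a floor at the 40th percentile or no trend (37.1% to 40.6%), 5 of 17 with array weights (31.8%), 4 of 17 with the 2 doses alone (29.8%) and 4 to 6 of 17 on leaving out 1 line (30.4% to 34.8%). They were 7 of 14 with a 65th-percentile filter (50.3% of all), 5 of 24 with no filter (16.3%), 5 of 8 genes by the brightest probe set (43.7%) and 2 of 8 by the gene mean (38.2%). Without the replicate block, 0 of 17 passed in limma (2.13% of all). With it left out, 3 of the 17 had an unadjusted p under 0.05 (4736 of all 27306). At 0.3 against 0 µM, 1 of 17 passed with array weights (12.9% of all). On leaving out 1 line 0 to 1 did (0.00366% to 1.81% of all). The member was INPP4B 235046_at each time, at 0.37 with array weights (adjusted p = 0.0314, limma) and 0.52 without Yamato-SS (0.0406). At 3 against 0.3 µM, 2 of 14 passed with the 65th-percentile filter (18.8% of all) and 3 of 17 with array weights (15.7%). In that comparison, 0 passed with the gene mean (10.6% of all), without the block (0% of all) or on leaving out 1 line (3.19% to 8.67%). No member call reversed. Of the 7 calls at 3 against 0 µM, those of AKT1, PDPK1 224986_s_at and PHLPP2 held on leaving out each line; with the gene mean PDPK1 was at 0.13 (adjusted p = 0.475), PHLPP2 at -0.47 (0.197) and INPP4B at 0.02. Without quantile normalization the median of all changes moved to 0.11, the share of calls that were higher to 59.7% (49.8% with it), AKT2 203809_s_at to an adjusted p of 0.0967, and AKT2 1560689_s_at and PHLPP1 passed (0.0274 and 0.0494). The causes were not tested.

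Over all probe sets, 10746 passed at 3 against 0 µM, 1453 at 0.3 against 0 µM and 3143 at 3 against 0.3 µM. In that order of comparisons, the counts were 5304, 961 and 1862 with the brightest probe set per gene, 4190, 434 and 1168 with the gene mean, where fewer features were tested, and 582, 0 and 0 without the block (limma; 782 and 1281 at unadjusted p under 0.05 where 0 passed). At 0.3 against 0 µM they were 9 with no filter, 2404 with the 2 doses alone, 0 without the trend (6081 at unadjusted p under 0.05) and 3519 with array weights. At 3 against 0.3 µM they were 976 with no filter and 1436 without the trend. On leaving out 1 line they were 8310 to 9508, 1 to 493 (lowest without Aska-SS) and 870 to 2367.

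None of the changes that turned sign was called. Without quantile normalization, at 0.3 against 0 µM, AKT2 203809_s_at was 0.0724 and 236664_at 0.109. With log2 of the value plus 16, AKT2 226156_at at 3 against 0 µM was -0.00265. With the gene mean, PHLPP1 was -0.0617 at 3 and -0.19 at 0.3 against 0 µM, AKT2 0.14 and PDPK1 -0.00648 at 0.3 against 0 µM, and INPP4B -0.19 at 3 against 0.3 µM. With array weights, AKT2 226156_at was -0.0151 at 3 against 0 µM, and AKT2 236664_at 0.14 and PDPK1 32029_at -0.0572 at 0.3 against 0 µM. On leaving out 1 line, the ranges at 3 against 0 µM were -0.11 to 0.15 for AKT2 226156_at, -0.0295 to 0.21 for 236664_at, -0.15 to 0.42 for PDPK1 221244_s_at, -0.0379 to 0.48 for 32029_at and -0.19 to 0.18 for INPP4B 205376_at. At 0.3 against 0 µM they were -0.11 to 0.0462 for AKT2 203809_s_at, -0.27 to 0.0165 for 211453_s_at, -0.28 to 0.29 for 236664_at, -0.16 to 0.30 for PDPK1 221244_s_at, -0.12 to 0.39 for 32029_at and -0.0414 to 0.14 for INPP4B 205376_at. At 3 against 0.3 µM they were -0.10 to 0.28 for AKT2 1560689_s_at, -0.0826 to 0.43 for 236664_at, -0.0684 to 0.11 for PDPK1 221244_s_at, -0.15 to 0.0365 for INPP4B 205376_at and -0.17 to 0.0134 for INPP5E.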
